A study of Drosophila melanogaster with 4 samples.

Results

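H3K4me3 is a modification of histone H3 in which lysine 4 carries 3 methyl groups. In flies, as in other animals, the Set1 and Trithorax family of methyltransferases deposits the mark, and demethylases of the Lid/KDM5 family remove it. It is concentrated on the nucleosomes just downstream of the start sites of active genes, so that a list of H3K4me3 regions is largely a list of active promoters. Where genes lie close together, neighbouring marked promoters form dense stretches. Long unmarked stretches separate these, and a single marked region can stand alone in them.

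The regions described here are such lone regions, called isolated regions. They come from the chromatin of adult heads of wild-type Oregon-R fruit flies (Drosophila melanogaster), collected as mixed adults from population cages and sieved for heads. The antibody was ab8580 lot 2. All 4 samples share this genotype, stage and tissue. They are 2 H3K4me3 ChIP replicates and 2 input samples, and each input served as the control of a ChIP replicate. A head holds many cell types, and a region list cannot tell a mark present in few cells from a weak mark present in many. The labels do not state whether the replicates are separate fly collections, and differences between them may be only technical.

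Isolated regions were chosen by their spacing in the authors' list for the set of both replicates, called the combined list here. On the arms 2L, 2R, 3L, 3R and X, gaps were taken to the enriched regions before and after a region. A region counted as isolated if both gaps were at least 30000 bp. A gap is a stretch with no enriched region in the list. The 10 regions at the ends of these arms have a neighbour on 1 side only and could not qualify. The rule found 323 isolated regions among 4814 enriched regions of the arms, or 6.71% (exact 95% interval 6.02 to 7.45%), and among 4979 in the whole list. Positions are in FlyBase release 5 coordinates. The list gives each region a start, an end and a score that is the authors' own. Its scale and log base are not known here, so scores are compared within a list, as differences and never as folds. The combined list is made from both replicates and chose the members, so its values and those of the replicate lists are given as descriptions, with no test. Read counts are not in the lists and the depth behind each region is unknown.

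By the rule that chose them, the isolated regions stood in sparsely marked chromatin. Enriched regions covered 15.5% of the 119 Mb of the arms. The median gap between neighbours was 7793 bp. Gaps of at least 30000 bp were 989 of 4809 (20.6%), yet they took up 59.2% of the arms' length. The 539 gaps that border an isolated region came to 40.4 Mb, or 34.0% of the arms, and the isolated regions between them covered 1059 kb, which is 5.72% of all covered bases. The smaller gap of an isolated region had a median of 44.6 kb and ranged from 30.1 to 155 kb, and the larger gap had a median of 82.6 kb and reached 372 kb. In the replicate lists, no region of replicate 1 and 2 regions of replicate 2 lay wholly within these gaps. The combined list that set the gaps is made from both replicates, so this is no separate evidence that the gaps are unmarked. The 3 members just inside the threshold had smaller gaps of 30.132, 30.281 and 30.318 kb, widths of 3506, 2740 and 2022 bp and scores of 1.78, 1.03 and 0.44. Just outside it were regions with gaps of 29.986, 29.923 and 29.923 kb, widths of 3014, 3989 and 1406 bp and scores of 1.43, 1.35 and 0.16.

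Isolated regions were lower-scored and, to a smaller extent, narrower than the other regions. In the combined list their median score was 1.12 (interquartile range 0.56 to 1.59), against 1.84 (0.95 to 2.27) for the other 4491 regions of the arms. In replicate 1 the 299 regions that overlapped isolated regions had a median score of 1.24 against 1.98 for the rest, and in replicate 2 the 291 such regions had 1.22 against 1.93. The difference was -0.72 ± 0.02 (mean and SD, n = 2 replicate lists), far larger than the spread between the lists. Median widths were 2860 bp (interquartile range 2217.5 to 3882 bp) for isolated and 3219 bp (2494.5 to 4674.5 bp) for other regions in the combined list. The width difference in the replicate lists was -415.5 ± 20.5 bp (SD, n = 2), with -401 bp in the first list and -430 bp in the other. When only the higher-scored 50% of regions were kept and gaps taken anew between them, the differences were only -0.078 in score and -83.5 bp in width, and 56 of the 279 regions isolated in that way were among the 323. Few isolated regions reached the upper range. A score above 2 was found in 44 of the 323 (13.6%, exact 95% interval 10.1 to 17.9%), while 40.0% of all enriched regions of the arms were above 2. Only 57 (17.6%) were at or above the median score of the arms, 1.78. At the lower end, 74 isolated regions (22.9%, 18.4 to 27.9%) scored 0.5 or less, compared with 15.0% (14.0 to 16.1%) of the other regions.

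The lower scores held in regions of like width, except for the narrowest. Among regions of up to 2000 bp, isolated and other regions had median scores of 0.29 and 0.31, and the difference in the replicate lists was -0.00772 ± 0.0109 (SD, n = 2), no larger than the spread between them. From 2001 to 3000 bp the medians were 0.94 and 1.36, from 3001 to 4000 bp they were 1.42 and 1.98, and from 4001 to 6000 bp 1.54 and 2.22. The 28 isolated regions over 6000 bp had a median score of 1.83 against 2.31 for the 591 others of that class. In these 4 classes the differences in the replicate lists were -0.42 ± 0.02, -0.62 ± 0.02, -0.52 ± 0.08 and -0.45 ± 0.04 (SD, n = 2), each larger than the spread between replicates. Median widths inside the classes were close, for example 3439 and 3460 bp from 3001 to 4000 bp, apart from the widest class, where isolated regions had 6483.5 bp and others 7555 bp. The differences of medians in the width classes were also averaged, each weighted by the share of isolated regions in its class. This gave -0.42 in the combined list and -0.41 ± 0.03 (SD, n = 2) in the replicate lists. The difference of -0.72 is between medians over all widths, which is another statistic, so the drop does not measure a part due to width.

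**Figure D1:**
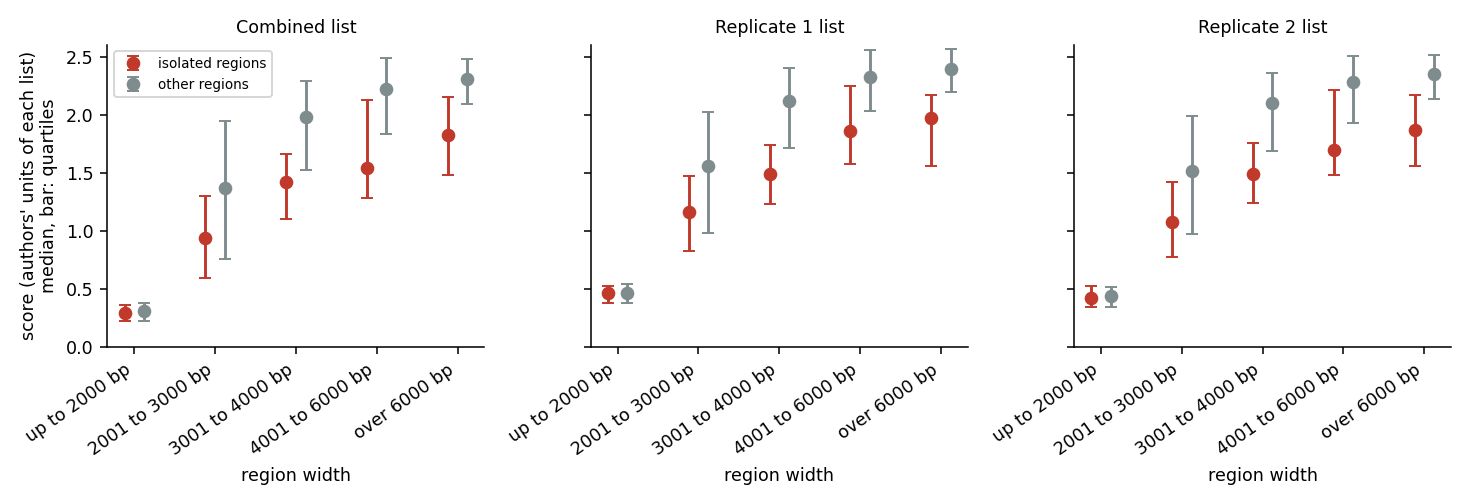
Score of isolated (red) and other (grey) regions by width class, in the combined list and in each replicate list; points are medians and bars the interquartile range, in the authors' score units of each list. The medians are 0.29 and 0.31 in the combined list for regions of up to 2000 bp, and in every wider class the isolated median lies below the other, with differences of -0.68 to -0.42 in the combined list.

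Scores were lower where spacing was wider, with the largest step between the classes of 3 to 10 kb and 10 to 30 kb, and the isolated regions lay below that step. Regions with a smaller gap of up to 1 kb had a median score of 2.04, those with 1 to 3 kb 1.94 and those with 3 to 10 kb 1.82. The median was then 1.16 for gaps of 10 to 30 kb and 1.12 for the isolated regions. Each replicate list, with its own gaps and scores, had the same order, from 2.12 to 1.28 in replicate 1 and from 2.11 to 1.25 in replicate 2. Median width went from 3542 bp in the closest class to 2765 bp at 10 to 30 kb and 2860 bp in isolated regions. In median score and width the isolated regions were therefore close to those spaced 10 to 30 kb apart. They parted in the upper range, where 22.1% of the regions spaced 10 to 30 kb and 13.6% of the isolated ones scored above 2. The 2 classes lay further apart in wide regions. From 2001 to 3000 bp their median scores were 0.93 and 0.94, and from 3001 to 4000 bp 1.53 and 1.42. From 4001 to 6000 bp they were 2.01 (112 regions) and 1.54 (47 isolated), and over 6000 bp 2.20 (59 regions) and 1.83 (28 isolated). Scores also differed by the number of long gaps beside a region. Medians were 1.93 for regions with no gap of at least 30000 bp, 1.62 for the 1329 with such a gap on 1 side and 1.12 for those with it on both. Among the isolated regions themselves, the Spearman coefficient was -0.000356 between smaller gap and score and 0.07 between smaller gap and width over the 323 regions. The upper range did differ by gap: a score above 2 was found in 17.6% of the 193 with a smaller gap of 30 to 50 kb, 8.33% of the 108 with 50 to 100 kb and 4.55% of the 22 with 100 kb and over, and the third quartile of score was 1.68 in the first of these classes and 1.48 in the last. These coefficients are across regions of 1 list, which share libraries and depth.

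**Figure D2:**
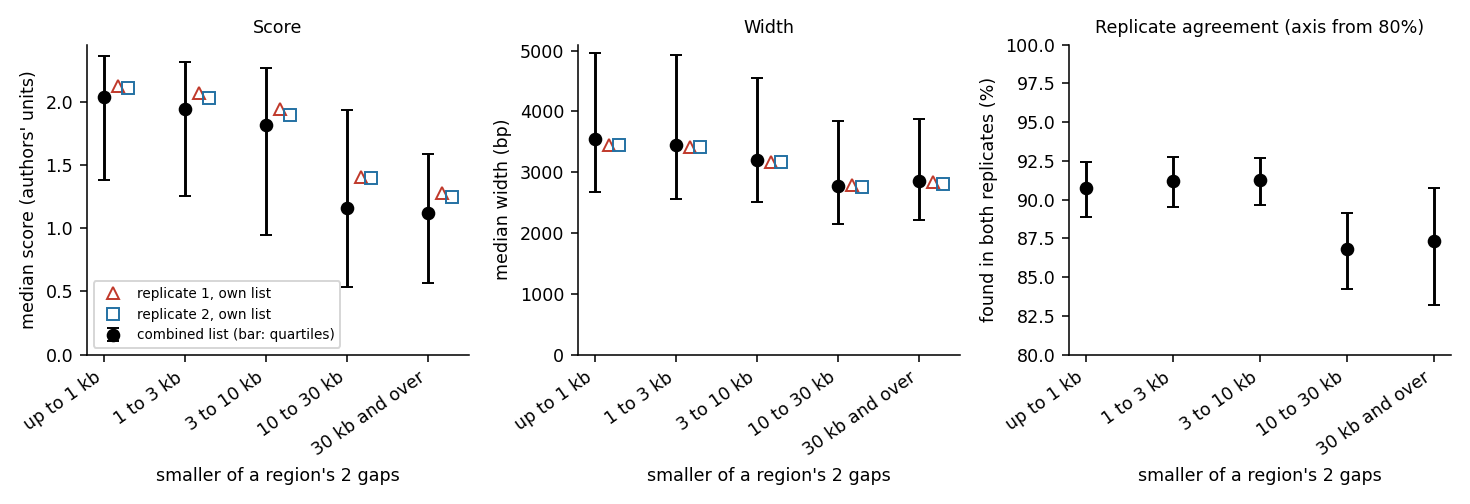
Score, width and replicate agreement of enriched regions by the smaller of their 2 gaps. Black points are combined-list medians with interquartile bars (left and middle) or the percentage found in both replicates with its exact 95% interval (right, axis from 80%); open symbols are medians of each replicate list by its own gaps, set beside the black points. The median score goes from 1.82 at 3 to 10 kb to 1.16 at 10 to 30 kb and is 1.12 for isolated regions, while width and agreement move less.

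The isolated regions were found again in the replicates nearly as often as any region. Of the 323, 282 overlapped a region of both replicates by at least 1 bp (87.3%, exact 95% interval 83.2 to 90.7%), against 90.2% of all enriched regions of the arms. Replicate 1 alone held 13 (4.02%, against 2.12% of other regions) and replicate 2 alone 9 (2.79%, against 2.45%). A further 19 (5.88%, 3.58 to 9.03%) had no region in either, where 5.11% of all regions of the arms had none. By arm, the shares of isolated and other regions found in both were 84.5 and 91.6% on 3R and 86.5 and 92.5% on 2L. They were 83.0 and 85.2% on X, 91.25 and 92.2% on 3L and 91.1 and 90.2% on 2R. The share found again varied with width, and did so in isolated and other regions alike. Of isolated regions over 2000 bp, 263 of 265 (99.2%) were found in both replicates, and of other regions of that width 3892 of 3928 (99.1%). Of those up to 2000 bp, 19 of 58 isolated (32.8%) and 167 of 563 other regions (29.7%) were. By score the picture was the same: all 187 isolated regions and 3317 of 3321 other regions with a score above 1 were in both lists, and at a score of up to 0.5 these were 35 of 74 isolated (47.3%) and 281 of 675 other regions (41.6%). In each of these classes the isolated share was at or above that of the other regions.

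Where both replicates had a single region, they placed it alike. This was so at 279 isolated regions. The Spearman coefficient between replicates was 0.98 for score and 0.98 for width, as it was for the 3902 other regions matched in this way (0.98 and 0.98), each over regions that share the 2 libraries. The start moved by a median of 44 bp between replicates and the end by 58 bp, compared with 44 and 43 bp in other regions. Width differed by more than 1000 bp at 5 of the 279 isolated regions. The score was higher in replicate 1 at 180 of the 279 (64.5%), though the 2 lists may scale it differently. No such counts are given here for the other regions, so neither count can be read as particular to isolated regions. The median score of matched regions was higher in replicate 1 in both groups. It was 1.29 against 1.24 in isolated regions and 1.99 against 1.95 in other regions. The combined list drew isolated regions slightly wider than the replicates did, by a median of 120 bp over replicate 1 and 161 bp over replicate 2, against 91 and 93 bp in other regions. The replicates thus covered 96.1% and 94.8% of the bases of the median isolated region. Of the 295 isolated regions present in replicate 1, 291 were isolated there by the same rule, and all 291 present in replicate 2 were. The members were chosen by spacing in a list made from both replicates, so this is no separate evidence of isolation. Applied to each replicate list alone, the rule gave 339 and 334 isolated regions, of which 313 were shared (92.3% of replicate 1 and 93.7% of replicate 2).

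**Figure D3:**
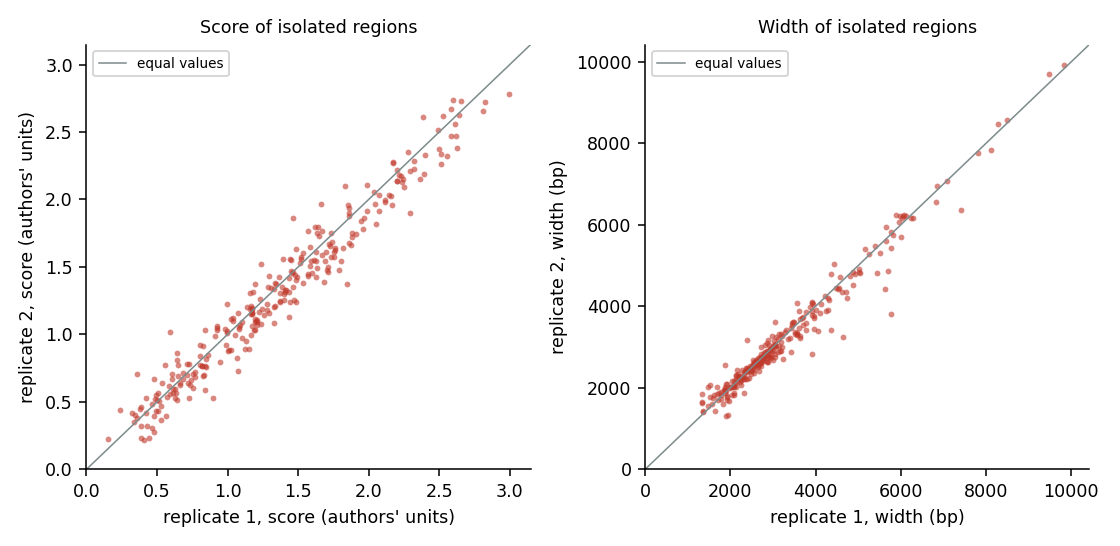
Score (left) and width (right, bp) in replicate 1 against replicate 2 for the 279 isolated regions matched by a single region in each; each point is a region and the line marks equal values. The points follow the line over the whole range of both measures (Spearman 0.98 for each).

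All 5 arms held isolated regions, and all showed the lower score. The counts were 80 on 3L, 74 on 2L, 71 on 3R, 53 on X and 45 on 2R. When the rule was applied to each replicate list, 3L had 3.40 ± 0.03 isolated regions per Mb (SD, n = 2), 2L 3.19 ± 0.03, 3R 2.71 ± 0.03, 2R 2.39 ± 0.03 and X 2.39 ± 0.09. The first 3 differ from their neighbours in this order by more than the SD, and 2R and X do not. The SD covers repeat calling and not the counting error of 45 to 80 regions, so whether the arms differ was not tested. On 2R, gaps of at least 30000 bp took up 51.2% of the arm, and on the other arms 59.2 to 62.9%. The median score of isolated regions was below that of the others in all 10 combinations of arm and replicate, with differences of -0.84 to -0.47. Their median width was also below in all 10, with differences from -109 bp on 2L in replicate 1 to -862.5 bp on X in replicate 2. On X the median isolated region was 2784 bp wide and the median other region 3524 bp. Matched X regions were wider in replicate 2 at 25 of 42 isolated regions (59.5%) and at 68.5% of the others, while on the autosomal arms this share was 42.2 to 50.8% for isolated regions. Position along the arm made little difference. Isolated regions made up 7.33% of regions in the third of the arms nearest the centromere, 6.39% in the middle and 6.44% in the distal part, with median scores of 1.09, 1.10 and 1.15.

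Some isolated regions neighboured each other. Of the 323, 182 had another isolated region next to them, in 75 runs of 2 or more. The other 141 stood singly between regions that had a closer neighbour on the far side or lay at an arm's end. The rule favours such runs, because each neighbour of an isolated region already has a gap of at least 30000 bp on the shared side. Whether the runs went beyond what this alone gives was not tested. The longest runs had 5 members, and there were 4 of them. On 2L at 14407807 to 14973082, a run spanned 565 kb, of which 2.75% was covered. Its members scored 1.13, 1.65, 0.46, 1.15 and 1.41 in the combined list, with 1.16, 1.76, 0.49, 1.14 and 1.49 in replicate 1 and 1.15, 1.61, 0.55, 1.21 and 1.42 in replicate 2. All were 2148 to 4336 bp wide and present in both lists, and the gap between the last pair was 279 kb. On 3L at 4624039 to 5079752 a run spanned 456 kb and was covered to 3.42%. It joined members of very different strength: a region of 1333 bp with a score of 0.38, absent from both replicates, lay between the first member, with 2.15, and the region at 4824111 to 4827631, with 2.61. A further run on 3L at 8668327 to 8907633 (239 kb) also mixed a score of 2.50 with one of 0.31, and all 5 of its regions were in both replicates. The run on 2L at 1419218 to 1655180 (236 kb) held the highest-scored isolated region of all beside 2 with scores of 0.20 and 0.30. High and low scores thus stood side by side within runs.

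**Figure D4:**
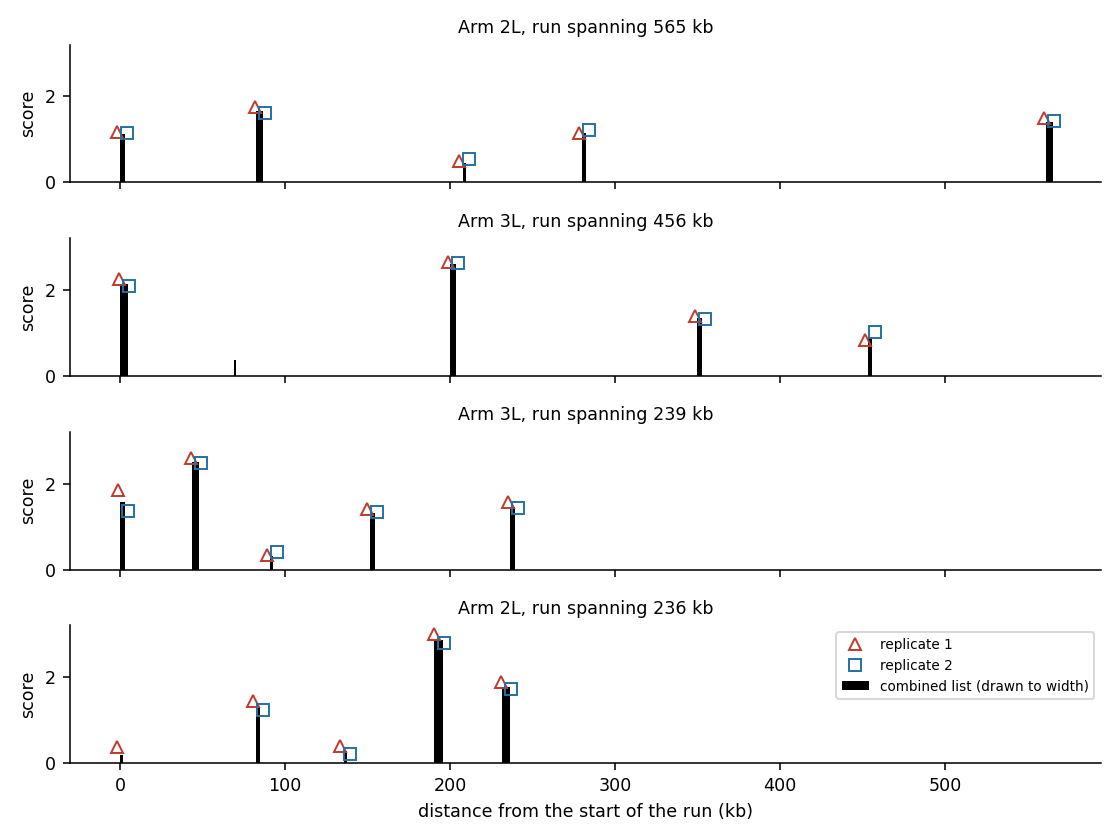
The 4 runs of 5 consecutive isolated regions, drawn by distance from the start of each run (kb). Bars show the combined-list score at the width of each region, and open symbols the score in replicate 1 (triangles) and replicate 2 (squares), set slightly apart. Scores range from 0.20 to 2.86 in these runs, the replicates lie close to each other, and a missing symbol means no region in that replicate.

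The regions with the longest gaps differed widely in width, score and presence in the replicates. The largest smaller gap, 155 kb, was that of a region on 3R at 2012773 to 2014352. It was 1580 bp wide with a score of 0.30, and was present only in replicate 2, with 1327 bp and 0.50. The next, on 3L at 24224257 to 24225768 with 150.2 kb, was 1512 bp wide with a score of 0.08 and was present only in replicate 1, with 1668 bp and 0.22. On X at 22255856 to 22257232, a region with 138 kb on its closer side had 1377 bp and 0.32 and was in neither replicate. In contrast, the region on 3L at 13656372 to 13660440, with 134 kb, was 4069 bp wide and scored 1.01, and the replicates gave 4000 and 3908 bp and 1.10 and 0.98. On 2R, the region at 15713309 to 15719970 had gaps of 132 kb and 278 kb, a width of 6662 bp and a score of 1.59. The replicates drew it 5966 and 6063 bp wide, with 1.76 and 1.63. The region with the longest gaps on 2L, at 17130376 to 17134199, had 124 kb on its closer side, 3824 bp and a score of 1.05, and measured 3053 bp in replicate 1 and 3621 bp in replicate 2. Across the 22 isolated regions with at least 100 kb on both sides, the median score was 0.98 and 17 (77.3%, exact 95% interval 54.6 to 92.2%) were in both replicates, against 91.7% of the 108 with 50 to 100 kb and 86.0% of the 193 with 30 to 50 kb.

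A few isolated regions scored far above their median. The highest score, 2.86, belonged to the 5850 bp region on 2L at 1609234 to 1615083, with 3.00 in replicate 1 and 2.78 in replicate 2. On 3L, regions at 21670587 to 21675180 (2.74, 4594 bp) and 21719693 to 21723699 (2.62, 4007 bp) were neighbours across a gap of 44.5 kb. Replicates 1 and 2 gave the first of them 2.82 and 2.72 and the other 2.58 and 2.67. On 3R at 2279870 to 2284863, a region scored 2.69, with 2.81 and 2.65 in the replicates. The fifth was the 3521 bp region on 3L at 4824111 with 2.61. It had a gap of 130.1 kb on its closer side and scored 2.64 and 2.63 in the replicates. These 5 were 3521 to 5850 bp wide, above the median isolated width of 2860 bp, and none of them was among the 5 widest. The widest, on X at 4210530 to 4220540, spanned 10011 bp (9841 and 9931 bp in the replicates) with a score of 2.23. Next came regions on 3L at 538578 to 548332 (9755 bp, score 2.15) and 17791631 to 17800352 (8722 bp, 1.86). A region on X at 7501600 to 7510223 (8624 bp) scored 1.45, and replicate 1 split it in 2. The last of the 5 was on 3L at 3369847 to 3378305 (8459 bp, 2.22). Such splitting was uncommon, at 4 isolated regions (1.24%) and 158 others (3.52%).

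The lowest-scored members were narrow. The 5 lowest scores ran from 0.08 to 0.13, at widths of 1477 to 1787 bp. They lay on 2L at 7721686, 3L at 24224257, 3R at 15288674, 3L at 18177530 and 2R at 11139880, and only those at 15288674 and 18177530 were in both replicates. The 19 isolated regions found in neither replicate were 1053 to 1965 bp wide and scored 0.23 to 0.58. The widest of them were on X at 5452245 to 5454209 (1965 bp, 0.58), 3R at 4005356 to 4007213 (1858 bp, 0.36) and 3L at 14123135 to 14124701 (1567 bp, 0.36). Of the 19, 6 were on X (31.6%, where X held 16.4% of all isolated regions), 5 on 2L, 4 on 3R, 3 on 3L and 1 on 2R. The narrowest replicate region was 1301 bp, and 8 of the 323 isolated regions were narrower than that. Of all 4814 enriched regions of the arms, 4677 were at least 1301 bp wide. The 22 found in a single replicate were 1367 to 2928 bp wide, with scores of 0.08 to 0.58. Depletion of the mark was listed at 2 places on 2L, and neither adjoined an isolated region: the nearest lay 362 and 123 kb away.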

How the data were processed

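Enriched regions were deposited in a separate list per H3K4me3 ChIP replicate (2 lists) and in a combined list, in FlyBase release 5 coordinates, per the file headers. The submitters' processing notes name Bowtie 0.12.7, an aligner. The score of each region is the authors' value as deposited. The sources used here do not give the region caller, its threshold, the way of combining replicates or the scale of the score, and each of these can change the number, width and score of regions. Without read counts per region, the depth behind a region is unknown.

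Gaps were computed between neighbouring enriched regions of an arm, leaving out the 2 depleted regions. Regions were matched between lists if they shared at least 1 bp, and a replicate's value at a combined region is that of its region sharing the most bases. Medians were compared within each list, with the mean and SD over 2 replicates. Exact (Clopper-Pearson) 95% intervals cover counting error only. No test across regions was made, since regions are not replicates and the members were chosen from the same lists. The members, the classes and the alternatives were chosen with earlier results of these data known, and the count of long gaps per region and the width classes within spacing classes were added after the data were seen.

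Named regions were, among the isolated ones, the 5 with the largest smaller gap, the 5 widest, the 5 highest-scored and the 5 lowest-scored, the 3 on each side of the threshold, the one with the largest smaller gap on each arm, the longest runs, and the 10 widest found in neither replicate, of which 3 are given singly. The search for isolated regions and the overlaps were tested on simulated data. The alternatives were gaps of 20000 and 50000 bp, joining of neighbours under 500 bp apart, the top 50% by score, a minimum width, leaving out X or the 2 Mb nearest the centromere, each replicate alone and stricter overlaps. No genome or annotation of release 5 was at hand, so genes and sequences at these regions were not analysed here. The work used Python 3.11.15, numpy 2.4.6, pandas 2.3.3, scipy 1.17.1 and matplotlib 3.10.9.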

Additional observations from a re-analysis of the deposited data

How the results depend on the processing

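The lower score and smaller width of isolated regions kept their direction under all alternatives. The size of both differences moved most among the top 50% of regions by score, and less with the choice of gap. The number of isolated regions, 323 as reported, was 549 with gaps of 20000 bp and 130 with gaps of 50000 bp, and 270 to 339 under the other alternatives. The median score difference of -0.72 was -0.78 and -0.68 with gaps of 20000 and 50000 bp and -0.75 with joined neighbours, a joined region taking its highest score. It was -0.078 among the top 50% of regions by score, a setting that selects on the value compared and so is no independent check of it. Gaps were also taken anew there, so that 56 of the 279 isolated regions were among the 323, and the cause was not tested. The width difference of -359 bp was -473 bp and -237 bp with gaps of 20000 and 50000 bp, -465 bp with joined neighbours, -83.5 bp in the top 50% by score, -388.5 bp with a minimum width of 1301 bp, -278.5 bp without X and -388.5 bp without the centromere-proximal 2 Mb. With the rule applied to a single replicate list, the count was 334 to 339, the score difference -0.70 to -0.68 and the width difference -389 to -363.5 bp. The share found in both replicates was 100% in the top 50% by score, where it was also 99.95% (99.953) in other regions, and 86.9 to 89.6% under the other alternatives. Isolated and other regions had 89.6 and 93.1% with the minimum width, 88.1 and 91.6% without X, and 87.9 and 91.4% with joined neighbours. The share was not computed with a replicate left out, since it needs both lists. Under a reciprocal overlap of 50% it was 87.3% in isolated and 89.7% in other regions. No paired analysis was possible because the inputs that share the replicate numbers have no region list and there is a single ChIP group. Unknown depth limits all shares of regions found again, most of all for the narrow, low-scored ones.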
